A study of Mus musculus with 12 samples.

Results

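The epidermal kallikreins are secreted serine proteases of skin, and the gene group described here holds 8 of them (Klk5, Klk6, Klk7, Klk8, Klk10, Klk11, Klk13 and Klk14) together with Spink5, the gene of their inhibitor LEKTI. These 9 of the 24537 genes listed were picked by symbol, after Klk6 and Klk8 had been seen to stay low in induced stratified epithelial progenitor cells (iSEPs). RNA was sequenced from 12 cultures in 4 groups of 3, each group drawing on the same 3 mice. ADSCs were Pdgfra-positive stromal cells of subcutaneous fat, cultured with serum. In vitro iSEPs were epithelial cells made from such ADSCs in culture, in vivo iSEPs were cultured from epithelium into which such cells had been converted inside the animal, and keratinocytes were primary cultures from back skin. The last 3 groups were grown in a keratinocyte medium without serum, so medium and cell type cannot be told apart in any comparison with ADSCs. All mice carried Pdgfra-creERxLSL-tdTomato, a drug-inducible Cre under the Pdgfra gene with a Cre-dependent red reporter. The animals' age and the factors used for conversion are not stated in the labels.

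In skin, kallikreins are made as inactive precursors in the upper living layers and activate each other by cleavage. Klk5 and Klk14 are trypsin-like and can activate other kallikreins and the receptor PAR2, whereas Klk7 is chymotrypsin-like. Between them they cut corneodesmosin, desmoglein 1 and desmocollin 1, the proteins that hold dead surface cells together, and so time the shedding of the skin surface. LEKTI restrains them, and loss of SPINK5 in people causes Netherton syndrome, with excess shedding and a failed skin barrier.

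Values are FPKM, reads per kilobase of exon scaled to the depth of the library, as deposited. Between 21010000 and 27760000 reads per library fell in listed genes. Tests used limma on log2(FPKM + 1) after a filter that kept the 12364 genes reaching 1 FPKM in 3 or more libraries, and a gene was called at an adjusted p (Benjamini-Hochberg) below 0.05. Of the 9 genes 8 passed that filter, while Klk11 reached 1 FPKM in 2 libraries and was left out of that fit. Klk6 and Klk8 were chosen for their levels, so they carry no test here. Nor does any of the 9 genes in the comparisons of iSEPs with keratinocytes, from which the choice was made. The summed level of 6 basal keratinocyte markers lay between 12.2 and 13.6 FPKM in ADSCs and between 10201 and 23222 outside them, and that of 7 stromal markers was 6608 to 9490 in ADSCs and 3.46 to 177 elsewhere. Of 5 immune markers Cd3e and Cd207 were at 0 in all libraries, and the list summed to 5.23 to 51.8 FPKM in ADSCs, where Lyz2 of myeloid cells was at 4.54, 50.5 and 7.93, and to at most 0.574 elsewhere. Of 4 melanocyte markers Tyr was at 0 in all libraries, and the list reached 2.34, with Mlana at 2.12, in the in vivo iSEPs of mouse 1. Dct was at 0.032 and Pmel at 0.185 there. The same library had the highest sum of 3 endothelial markers, 8.8, with Pecam1 at 8.72, where the list reached 2.88 in keratinocytes. The other endothelial markers were low in it, Cdh5 at 0.027 and Kdr at 0.059, with Kdr at 0.445 and 0.191 in the in vivo iSEPs of mice 2 and 3. Each of these sums thus came mostly from 1 marker. The in vivo iSEPs of mouse 1 also had the highest Klk14 and Klk13 of their group, and the part of other cell types in those levels was not tested. Among in vivo iSEPs, mouse 3 had a sum of 366 FPKM over 5 markers of simple or glandular epithelium, against as little as 21.5 in the other libraries of the group. Krt8 was at 103 FPKM in that library against 0.159 and 0.166 in mice 1 and 2. The list summed to 41.7 to 152 in in vitro iSEPs, 288 to 308 in keratinocytes and 21.8 to 47.8 in ADSCs, with no marker at 0 throughout a group.

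All 8 kallikrein genes lie on the plus strand in 161 kb of chromosome 7 (mm10), in the order Klk14, Klk13, Klk11, Klk10, Klk8, Klk7, Klk6 and Klk5. Their group means divided along that order, though for Klk14, Klk13, Klk10 and Klk5 the highest group overlapped with the next. Klk14, Klk13 and Klk11, at the low-coordinate end, had their highest mean in in vitro iSEPs. The other 5, from Klk10 to Klk5, had their highest mean in keratinocytes. Spink5, on chromosome 18, went with the former in having its highest mean in in vitro iSEPs. In bulk cultures, fewer cells that express a gene and less RNA per cell cannot be told apart.

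**Figure D1:**
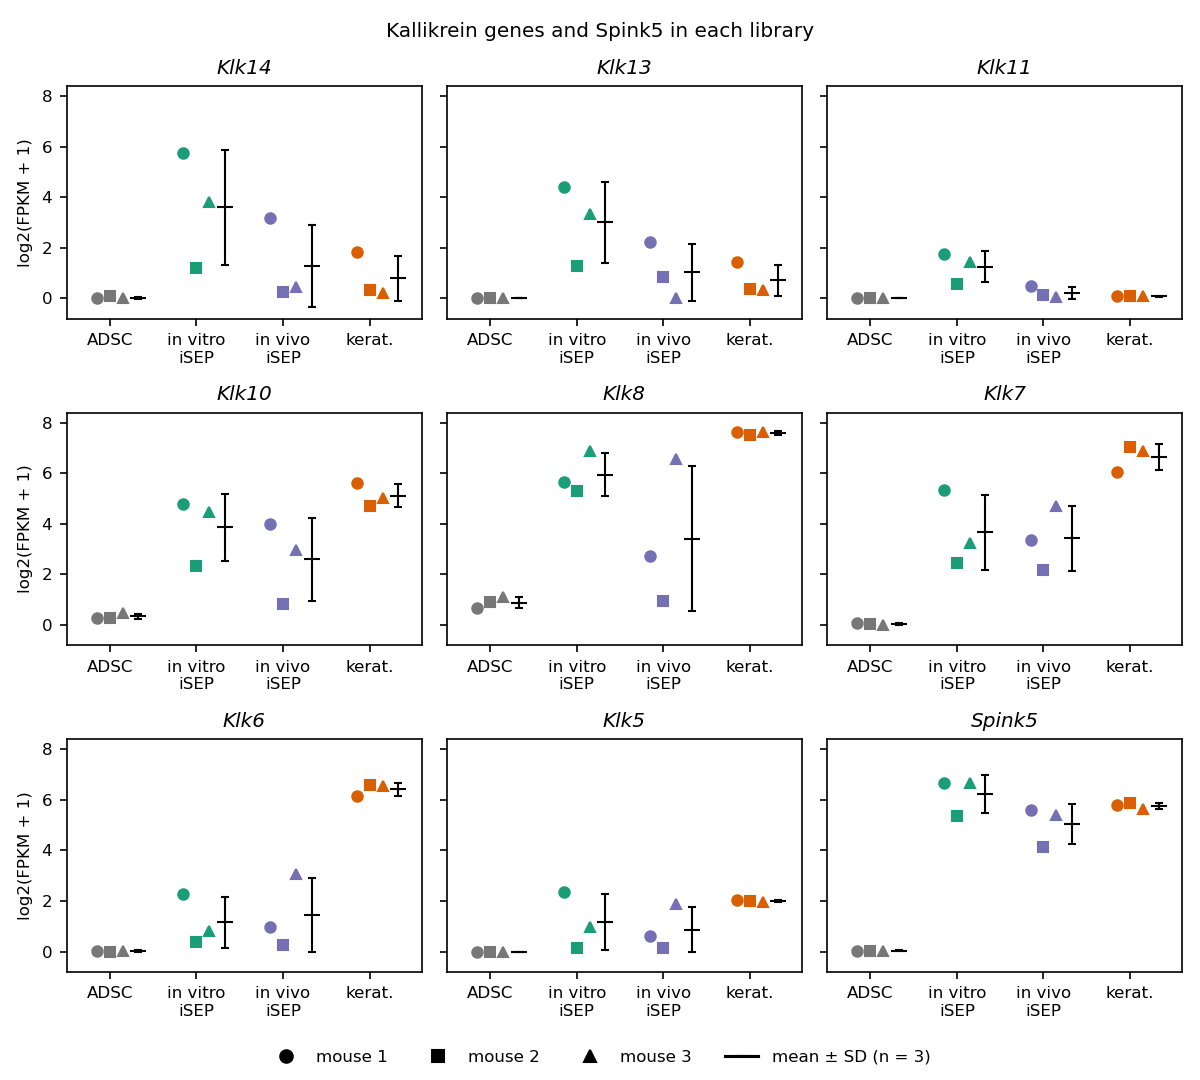
Expression as log2(FPKM + 1) (vertical axis) of the 8 kallikrein genes in chromosome order and of Spink5, by library in 4 groups. Symbols stand for mouse 1 (circle), mouse 2 (square) and mouse 3 (triangle), and whiskers show the mean and SD of 3 libraries. Klk6, Klk7 and Klk8 were higher in each keratinocyte library than in any iSEP library, while Klk14 and Klk13 peaked in the in vitro iSEPs of mouse 1 at 52.7 and 20.5 FPKM.

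The 250 bases before the start of the deposited transcript are shown for the 2 genes at the low-coordinate end. They are also shown for the 3 genes whose levels were higher in each keratinocyte library than in any iSEP library. The choice of these 3 rests on their levels, and Klk11, Klk10 and Klk5 are not shown. The sequences are from RefSeq on GRCm38.p6, plus strand, 5′ to 3′, and all 8 kallikreins matched an entry there. They are Klk14 at chr7:43690168-43690417, Klk13 at chr7:43712317-43712566, Klk8 at chr7:43797327-43797576, Klk7 at chr7:43811044-43811293 and Klk6 at chr7:43825200-43825394, the last ending 55 bases short of the start. Capitals mark a GC box (GGGCGG on either strand) or the run TTAAAA, which resembles a TATA box and was added to the search after the sequences had been seen.
Klk14: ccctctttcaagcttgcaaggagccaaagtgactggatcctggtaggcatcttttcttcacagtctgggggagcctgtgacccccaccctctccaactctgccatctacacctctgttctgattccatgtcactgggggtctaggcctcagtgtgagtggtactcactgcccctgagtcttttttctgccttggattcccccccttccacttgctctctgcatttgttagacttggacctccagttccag
Klk13: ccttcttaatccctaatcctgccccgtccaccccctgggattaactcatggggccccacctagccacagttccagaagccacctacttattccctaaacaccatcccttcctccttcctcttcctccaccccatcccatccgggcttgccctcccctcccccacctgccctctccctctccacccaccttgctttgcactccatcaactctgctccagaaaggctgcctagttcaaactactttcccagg
Klk8: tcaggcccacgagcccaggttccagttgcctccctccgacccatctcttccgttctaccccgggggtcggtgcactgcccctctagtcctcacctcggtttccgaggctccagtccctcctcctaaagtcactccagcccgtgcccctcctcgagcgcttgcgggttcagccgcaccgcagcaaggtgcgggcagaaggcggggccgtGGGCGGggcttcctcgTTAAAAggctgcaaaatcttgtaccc
Klk7: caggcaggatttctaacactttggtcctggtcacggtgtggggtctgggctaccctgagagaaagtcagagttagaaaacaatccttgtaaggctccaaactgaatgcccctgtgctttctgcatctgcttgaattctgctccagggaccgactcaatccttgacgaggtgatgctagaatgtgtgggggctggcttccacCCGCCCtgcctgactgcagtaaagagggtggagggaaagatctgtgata
Klk6: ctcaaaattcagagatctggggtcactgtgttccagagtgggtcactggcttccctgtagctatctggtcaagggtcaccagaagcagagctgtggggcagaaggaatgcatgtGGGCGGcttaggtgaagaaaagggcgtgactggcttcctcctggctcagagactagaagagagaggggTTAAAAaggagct

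A GC box was found before 3 of the 8 kallikreins, Klk6, Klk7 and Klk8. That share is near the 32.7% of 32817 promoter windows of this length that hold one. Klk10 and Klk5, which also had their highest mean in keratinocytes, had none. Klk6, Klk7 and Klk8 were set apart after their levels were seen. TTAAAA was found before Klk6, Klk8 and Klk10, 68, 26 and 17 bases before the start, and in 17.7% of all windows. None of the 8 windows held TATAAA (12.4% of all windows), the AP-1 motif TGANTCA (6.75%) or the GRHL motif AACCNGTT (1.78%) on either strand. The Klk8 window held 18 CpG dinucleotides, a number reached by 21.7% of all windows, whereas the other 7 held 0 to 4 and the median window 6. These matches describe letters in the windows and were not tested for function.

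Klk6 (chr7:43825450-43832027, transcript NM_011177) encodes a trypsin-like protease found in skin and in the nervous system. It was at 69.2, 94.2 and 92.2 FPKM in the keratinocytes of mice 1, 2 and 3. Its level was 3.9, 0.297 and 0.746 FPKM in in vitro iSEPs, and in vivo iSEPs had 0.977, 0.196 and 7.43. The lowest keratinocyte library was thus several times above the highest iSEP library, and both kinds of iSEP overlapped. The mean of 85.2 ± 13.9 (SD, n = 3) in keratinocytes was 51.8 times that in in vitro iSEPs (1.65 ± 1.96) and 29.7 times that in in vivo iSEPs (2.87 ± 3.97). Each fold moved with 1 library. Without the in vitro iSEPs of mouse 1 the first was 163, and without the in vivo iSEPs of mouse 3, the library with Krt8 at 103 FPKM, the second was 145. On the log2(FPKM + 1) scale the differences from keratinocytes were -5.26 in in vitro iSEPs and -4.98 in in vivo iSEPs, and -5.83 and -5.80 without these libraries. ADSCs held 1, 0 and 1 reads of Klk6. Pooled over each group, the reads gave a ratio of 95.4 between in vitro iSEPs and ADSCs, and of 180.5 for in vivo iSEPs. Mouse 1 gave 135 of the 172 reads of in vitro iSEPs, and mouse 3 gave 320 of the 365 of in vivo iSEPs. These ratios rest on 2 reads in ADSCs and are a description.

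Klk8 (chr7:43797577-43803826, NM_001324398), or neuropsin, is another trypsin-like protease of upper epidermis and brain. It was the most abundant of the 8 kallikreins in keratinocytes, at 195, 182 and 198 FPKM. The in vitro iSEPs stood at 49.2, 38.3 and 118 FPKM, all below the keratinocytes and all above the ADSCs at 0.585, 0.859 and 1.14. In vivo iSEPs spanned 5.63, 0.943 and 92.6, so that mouse 2 lay within the ADSC range and mouse 3 among the in vitro iSEPs. Mean Klk8 in keratinocytes (192 ± 8.52, n = 3) was 2.8 times that of in vitro iSEPs (68.4 ± 43.1) and 5.81 times that of in vivo iSEPs (33 ± 51.6). Without mouse 3 of the iSEPs these ratios were 4.39 and 58.3. The log2 difference of in vivo iSEPs from keratinocytes was -4.18 with all libraries and -5.75 without the in vivo iSEPs of mouse 3. From in vitro iSEPs it was -2.53 with that library and -4.10 without it, and from ADSCs 2.53 and 0.96. The library with the high Klk8 was also the one with Krt8 at 103 FPKM and Krt18 at 95.5, and keratinocytes had Krt8 at 21.9 to 33.6. The part of simple epithelial genes in the level of Klk8 was not tested.

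Klk7 (chr7:43811294-43816387, NM_011872), the chymotrypsin-like enzyme that cuts corneodesmosin and desmocollin 1, had the same order of group means as Klk8. Keratinocytes had 65.8, 129 and 116 FPKM, in vitro iSEPs 39.1, 4.43 and 8.48, and in vivo iSEPs 9.27, 3.54 and 25.4. Every keratinocyte library was above every iSEP library. ADSCs had 0.049, 0.018 and 0, which is 4 reads in all. Against ADSCs, Klk7 rose in in vitro iSEPs (log2 difference 3.64, SE 0.71, limma adjusted p = 0.00127), in vivo iSEPs (3.39, SE 0.71, adjusted p = 0.00232) and keratinocytes (6.62, SE 0.71, adjusted p = 1.56e-05). It was higher than in all ADSC libraries in 3 of 3 libraries of each group.

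Klk10 (chr7:43781054-43785410, NM_133712) was at 47.5, 25.3 and 31.4 FPKM in keratinocytes, 26.3, 4 and 21.4 in in vitro iSEPs and 15, 0.761 and 6.76 in in vivo iSEPs. The libraries of mouse 2 were the lowest in all 3 groups, and in vitro iSEPs overlapped with keratinocytes while in vivo iSEPs did not. ADSCs had 0.21 to 0.372. It rose against ADSCs in in vitro iSEPs (log2 difference 3.52, SE 0.76, limma adjusted p = 0.00238) and in keratinocytes (4.77, SE 0.76, adjusted p = 0.0003). The rise in in vivo iSEPs (2.25, SE 0.76, adjusted p = 0.0301) lost its call without any 1 ADSC library (adjusted p from 0.0638 to 0.0739), without the in vivo iSEPs of mouse 1 (0.112) or mouse 3 (0.0684), and without the filter (0.0522).

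Klk5 (chr7:43842269-43851181, NM_026806), the trypsin-like enzyme placed at the head of the cascade, was low throughout. Keratinocytes had 3.12, 2.97 and 2.91 FPKM and stood close together. Among in vitro iSEPs it was at 4.08, 0.108 and 0.981, and in vivo iSEPs had 0.521, 0.107 and 2.65. The single highest value of Klk5 was thus that of the in vitro iSEPs of mouse 1. ADSCs had no read in any library. Against a floor of 3 reads per library, which corresponds to 0.0821 FPKM on average, mean Klk5 was at least 36.6-fold higher in keratinocytes and at least 21-fold higher in in vitro iSEPs. The rise against ADSCs passed the test in keratinocytes (log2 difference 2.0, SE 0.51, limma adjusted p = 0.00641). Klk5 passed the filter only through keratinocytes, so that call is a description. The rise did not pass in in vitro iSEPs (1.16, 95% interval 0.04 to 2.28, adjusted p = 0.0752) or in vivo iSEPs (0.87, interval -0.25 to 1.99, adjusted p = 0.182). With a pseudocount of 0.1 both passed (adjusted p = 0.0183 and 0.0403), and in vitro iSEPs also passed when their mouse 2 library (0.0147) or the mouse 3 library of in vivo iSEPs (0.0364) was left out.

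Klk14 (chr7:43690418-43695536, NM_174866), a trypsin-like enzyme that acts on PAR2 and desmoglein 1, had its highest mean in in vitro iSEPs and, outside ADSCs, its lowest in keratinocytes. The in vitro iSEPs of mice 1, 2 and 3 had 52.7, 1.32 and 13.2 FPKM, in vivo iSEPs 7.98, 0.183 and 0.372, and keratinocytes 2.52, 0.273 and 0.158. Mouse 1 gave the highest value in each of these groups, and the ranges of the 3 groups overlapped. The means were 22.4 ± 26.9, 2.84 ± 4.45 and 0.984 ± 1.33 (SD, n = 3), each SD being above its mean, and without mouse 1 the mean of in vitro iSEPs was 7.26. ADSCs held 0, 2 and 0 reads. The rise in in vitro iSEPs against ADSCs was called (log2 difference 3.57, SE 1.03, limma adjusted p = 0.0128). Klk14 reached 1 FPKM in 5 libraries and passed the filter only through the in vitro iSEPs, so this call is a description. In vivo iSEPs (1.26, interval -1.01 to 3.54, adjusted p = 0.341) and keratinocytes (0.77, interval -1.51 to 3.04, adjusted p = 0.558) did not pass.

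Klk13 (chr7:43712567-43726758, NM_001039042), another kallikrein of stratified epithelia, had the same order of group means as Klk14. Its values were 20.5, 1.43 and 9 FPKM in in vitro iSEPs, then 3.72, 0.806 and 0 in in vivo iSEPs and 1.68, 0.303 and 0.259 in keratinocytes, with no read in ADSCs. Mouse 1 was again the highest in all 3 groups, and the groups overlapped. Mean Klk13 in in vitro iSEPs was 10.3 ± 9.57, or 5.22 without mouse 1, against 0.748 ± 0.81 in keratinocytes. It was at least 104-fold higher than in ADSCs, taken at a floor of 3 reads per library. Its rise in in vitro iSEPs against ADSCs was called (log2 difference 3.01, SE 0.72, limma adjusted p = 0.0046). Klk13, too, passed the filter only through the in vitro iSEPs, so this call is a description. In vivo iSEPs (1.03, interval -0.56 to 2.62, adjusted p = 0.267) and keratinocytes (0.71, interval -0.88 to 2.31, adjusted p = 0.432) did not pass. The Pearson r of Klk14 with Klk13 over the 12 libraries on the log2 scale was 0.98, against -0.05 for Klk14 with Klk6 and 0.90 for Klk7 with Klk6. These are descriptions over libraries that share 4 groups.

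Klk11 (chr7:43776329-43779262, NM_019974), a trypsin-like kallikrein, was the faintest of the 8. The in vitro iSEPs had 2.36, 0.478 and 1.7 FPKM, in vivo iSEPs 0.397, 0.105 and 0.025, and keratinocytes 0.053, 0.055 and 0.079, which rest on 7 reads in all. The in vitro iSEPs lay above every other library, and their mean was 24.2 times that of keratinocytes. ADSCs had no read. With no filter on low values, over 19261 genes, its log2 difference from ADSCs was 1.25 in in vitro iSEPs (SE 0.244, limma adjusted p = 0.00237), 0.22 in in vivo iSEPs (adjusted p = 0.531) and 0.09 in keratinocytes (adjusted p = 0.83).

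**Figure D2:**
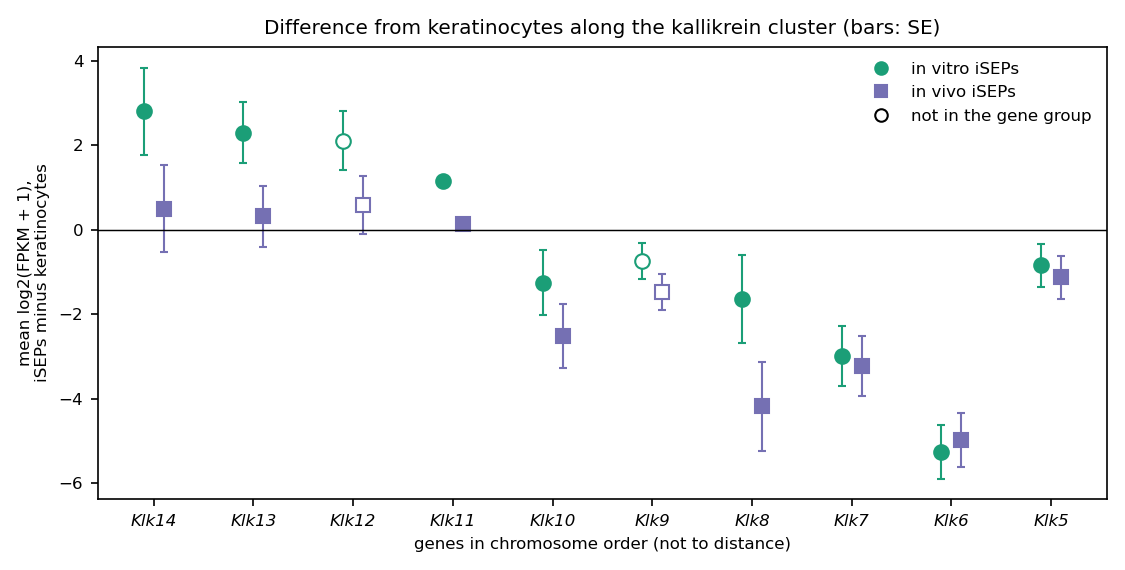
Difference of mean log2(FPKM + 1) between iSEPs and keratinocytes (vertical axis) for the kallikrein genes in chromosome order (horizontal axis, not to distance; circles for in vitro and squares for in vivo iSEPs, bars for the SE from limma, with none for Klk11, which was not fitted, open symbols for Klk12 and Klk9, which are not among the 8). The 4 genes from Klk14 to Klk11 lay above 0, up to 2.81. The 6 from Klk10 to Klk5 lay below 0, down to -5.26 at Klk6. With all keratinocytes kept, the position of the first 4 above 0 in in vivo iSEPs rested on the mouse 1 library.

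Without the in vivo iSEPs of mouse 1, the difference of in vivo iSEPs from all keratinocytes was -0.44 for Klk14 and -0.29 for Klk13. The sign was turned for both, and the difference was 0.00 for Klk11. The keratinocytes of mouse 1, the highest of their group in Klk14 (2.52 FPKM) and Klk13 (1.68), were kept in this. In mice 2 and 3, Klk14 was at 0.183 and 0.372 FPKM in in vivo iSEPs and 0.273 and 0.158 in keratinocytes. Klk13 was at 0.806 and 0 against 0.303 and 0.259, so the groups overlapped in both genes. Without the in vitro iSEPs of mouse 1, the difference of in vitro iSEPs from all keratinocytes was 1.73 for Klk14, 1.59 for Klk13 and 0.91 for Klk11.

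Klk12 and Klk9 lie between the genes above and were not among those chosen. Klk12 (chr7:43769100-43773481), between Klk13 and Klk11, had a mean of 6.37 ± 6.02 FPKM in in vitro and 1.17 ± 1.66 in in vivo iSEPs, against 0.217 ± 0.163 in keratinocytes (n = 3). Without mouse 1 the in vivo mean was 0.208. Klk9 (chr7:43791891-43796756), between Klk10 and Klk8, had 1.86 ± 2.07, 0.48 ± 0.357 and 3.15 ± 1.4. Neither difference from keratinocytes passed the test in in vitro iSEPs (Klk12 log2 difference 2.11, interval 0.59 to 3.62, limma adjusted p = 0.0725; Klk9 -0.74, adjusted p = 0.293) or in in vivo iSEPs (Klk12 0.58, adjusted p = 0.679; Klk9 -1.47, adjusted p = 0.0662). Against ADSCs, in vitro iSEPs had higher Klk12 (2.38, limma adjusted p = 0.0127), and keratinocytes had higher Klk9 (1.98, adjusted p = 0.0026). Klk12 passed the filter only through in vitro iSEPs and Klk9 only through keratinocytes, so these calls are descriptions. Klk9 was also called in in vitro iSEPs (1.24, adjusted p = 0.0313), a call lost in 9 alternatives (highest adjusted p = 0.0969). Of the 19 kallikrein genes outside the group, Klk4, Klk15, Klk1 and the Klk1b genes included, these 2 passed the filter. Ctu1, a tRNA-modifying enzyme gene that starts on the low-coordinate side of Klk14, was at 5.85 ± 1.36 FPKM in in vitro and 3.55 ± 0.172 in in vivo iSEPs, against 2.82 ± 0.249 in keratinocytes, and its difference between in vitro iSEPs and keratinocytes was called (log2 0.83, adjusted p = 0.00659). GENCODE M21 places the non-coding gene 2310002F09Rik on the minus strand across the genes from Klk14 to the start of Klk8. The deposited entry lies at chr7:43745466-43755936, between Klk13 and Klk12, and unlike those genes had its highest mean in keratinocytes. It was at 0.013 FPKM in ADSCs, 0.575 ± 0.241 in in vitro and 0.383 ± 0.627 in in vivo iSEPs and 1.31 ± 0.428 in keratinocytes, and neither difference from keratinocytes passed the test (log2 -0.54, limma adjusted p = 0.209, and -0.81, adjusted p = 0.0927). The TruSeq RNA Sample Prep Kit named in the labels does not mark strand, so reads of genes that overlap, on either strand, cannot be told apart.

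Spink5 (NM_001081180) was the member closest to keratinocytes in both kinds of iSEP by ratio of means. Its in vitro iSEP values were 99.9, 40.1 and 100.2 FPKM, those of in vivo iSEPs 47, 16.5 and 41.8, and those of keratinocytes 54.6, 57.4 and 48.8. The in vitro range enclosed that of keratinocytes, and the in vivo iSEPs all lay below keratinocytes. ADSCs had 0.027, 0.029 and 0.03, or 12 reads in all. The log2 difference from ADSCs was 6.19 in in vitro iSEPs (SE 0.39, limma adjusted p = 2.32e-07), 5.0 in in vivo iSEPs (adjusted p = 1.38e-06) and 5.73 in keratinocytes (adjusted p = 4.13e-07). The mean in in vitro iSEPs was 1.49 times that in keratinocytes, and the mean in keratinocytes 1.53 times that in in vivo iSEPs.

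The balance of proteases to inhibitor at the RNA level also differed between the cultures. The 8 kallikreins summed to 385 to 441 FPKM in keratinocytes, 50.3 to 198 in in vitro iSEPs, 6.64 to 135 in in vivo iSEPs and 0.867 to 1.54 in ADSCs. Divided by Spink5 of the same library, the sum was 7.05, 7.57 and 9.05 in keratinocytes, 1.98, 1.26 and 1.73 in in vitro iSEPs and 0.926, 0.403 and 3.23 in in vivo iSEPs. Klk6 and Klk8, by whose levels the genes were chosen, made up 63.7% to 68.6% of the keratinocyte sum, so this ratio is a description. With both left out, an alternative added after the data were seen, the other 6 kallikreins gave 2.21, 2.75 and 3.09 per Spink5 in keratinocytes. They gave 1.45, 0.294 and 0.546 in in vitro and 0.785, 0.334 and 0.841 in in vivo iSEPs, all below the keratinocytes. Their sum in the in vitro iSEPs of mouse 1 was 145 FPKM, within the 121 to 158 of keratinocytes, with Spink5 at 99.9. Klk7, whose r with Klk6 was 0.90, gave 65.8 to 129 FPKM of that sum in keratinocytes. With all 8 kallikreins ADSCs had ratios of 32.1 to 51.3, with both terms close to 0.

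**Figure D3:**
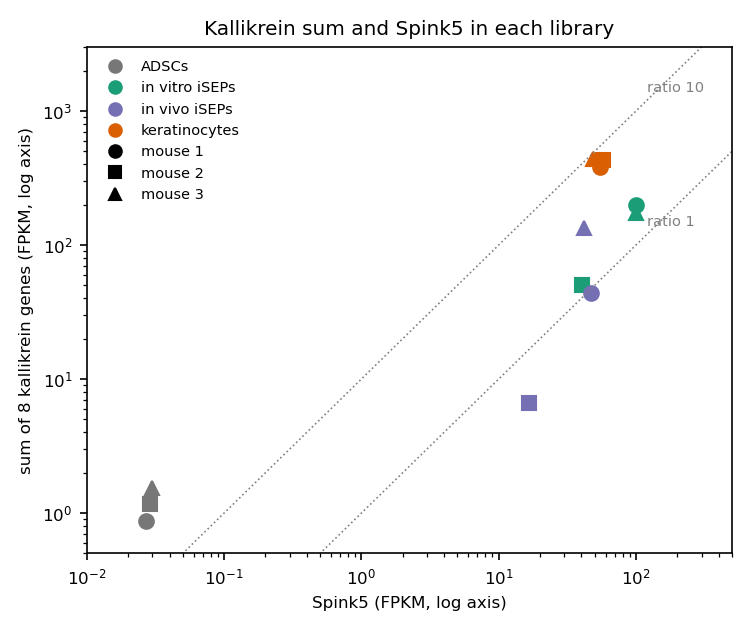
Sum of the 8 kallikrein genes (vertical axis, FPKM, log scale) against Spink5 (horizontal axis, FPKM, log scale) in each library, coloured by group, with a symbol for each mouse; dotted lines mark sums of 1 and 10 times Spink5. Keratinocyte libraries had ratios of 7.05 to 9.05 and iSEP libraries 0.403 to 3.23.

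The make-up of that sum varied as well. Klk6, Klk7 and Klk8 gave 85.7% to 93.3% of it in keratinocytes, 46.5% to 85.4% in in vitro iSEPs and 36.5% to 92.7% in in vivo iSEPs. Klk14, Klk13 and Klk11 gave 38.1%, 6.43% and 13.8% in the in vitro iSEPs of mice 1, 2 and 3 and 27.8%, 16.5% and 0.294% in the in vivo iSEPs. They gave 1.11%, 0.145% and 0.112% in keratinocytes. The 92.7% belonged to the in vivo iSEPs of mouse 3, in which Klk6 alone gave 5.5% against 18% to 21.7% in keratinocytes. In the in vivo iSEPs of mouse 2, whose sum was 6.64 FPKM, Klk7 gave 53.3%. These 2 sets of 3 genes were formed after their values were seen and are a description.

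**Figure D4:**
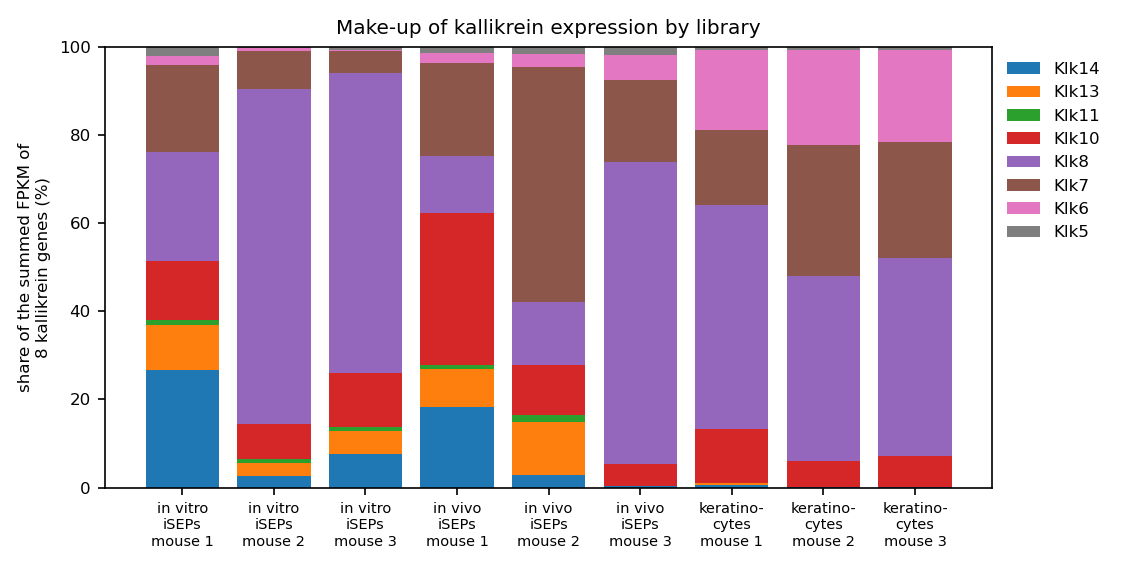
Share of each gene in the summed FPKM of the 8 kallikreins (vertical axis, percent) in each iSEP and keratinocyte library (horizontal axis). Klk6 held 18% to 21.7% in keratinocytes and 0.431% to 5.5% in iSEPs, and Klk14 held 26.6% in the in vitro iSEPs of mouse 1 and 18.3% in the in vivo iSEPs of mouse 1.

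Over the 6 genes tested (Klk5, Klk7, Klk10, Klk13, Klk14 and Spink5), 5 rose in in vitro iSEPs against ADSCs, where 32.1% of all genes tested rose and 21.7% fell. The count was 4 of 6 in keratinocytes (32.8% of all genes rose and 20.7% fell) and 3 of 6 in in vivo iSEPs (27.6% and 20%), and none of the 6 fell. Their median log2 difference was 3.54 in in vitro iSEPs, 3.38 in keratinocytes and 1.75 in in vivo iSEPs, where the median of all genes was 0.148, 0.184 and 0.136. These 3 comparisons share the ADSC libraries. Genes are kept by the filter through the groups in which they are high, so the counts describe these 6 genes and support no more.

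In vivo and in vitro iSEPs were compared for the place of conversion. None of the 6 genes passed, where 1.63% of all genes did (201, or 128 with the mouse as a block). At an unadjusted p below 0.05 were 3 of the 6, and 1845 of all 12364 genes. The estimates were below 0 for all 6 genes. They were -1.98 for Klk13 (interval -3.57 to -0.39, limma adjusted p = 0.218), -2.31 for Klk14 (-4.58 to -0.04, adjusted p = 0.325) and -1.18 for Spink5 (-2.05 to -0.32, adjusted p = 0.177). Klk10 had -1.27 (adjusted p = 0.484), Klk5 -0.29 (adjusted p = 0.858) and Klk7 -0.25 (adjusted p = 0.92). Outside these 6 genes, and with no test given, the difference was 0.28 for Klk6, -2.53 for Klk8 and -1.03 for Klk11. Without the in vitro iSEPs of mouse 2, Klk13 (-2.84, adjusted p = 0.0351) and Spink5 (-1.62, adjusted p = 0.0384) passed.

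Other proteases of the epidermal cascade were examined from a list of 15, of which 14 passed the filter. St14 (matriptase, a membrane protease that activates others) had mean FPKM of 63 ± 3.33 in keratinocytes, 58.6 ± 12.8 and 50.4 ± 16.1 in in vitro and in vivo iSEPs, and 0.106 ± 0.0299 in ADSCs (SD, n = 3), and rose in all 3 against ADSCs (limma adjusted p from 2.92e-09 to 5.04e-09). Asprv1, a retroviral-like aspartic protease of the granular layer, had 313 ± 135, 447 ± 356, 127 ± 124 and 0.238 ± 0.0708 in the same order and also rose in all 3 (adjusted p from 1.69e-05 to 0.000127). Against ADSCs, in vitro iSEPs had 8 of 14 higher and 1 lower, in vivo iSEPs 7 and 1, and keratinocytes 12 and 1. Over all genes 32.1% rose and 21.7% fell in in vitro iSEPs, 27.6% and 20% in in vivo iSEPs, and 32.8% and 20.7% in keratinocytes. Listed genes, too, are kept by the filter through the groups in which they are high, so counts of lists are descriptions. Plat, tissue plasminogen activator, was at 0.97 ± 1.22 FPKM in in vivo iSEPs and 52.3 ± 15.3 in ADSCs and fell (log2 -4.89, limma adjusted p = 3.01e-06). It was also low in in vitro iSEPs (2.85 ± 1.04) and keratinocytes (4.08 ± 2.26). Against keratinocytes 3 of 14 were lower in in vitro iSEPs, where 6.12% of all genes were, and 3 of 14 in in vivo iSEPs, where 4.08% were. Among these was Ctsb, the lysosomal protease cathepsin B, at 107 ± 3.27 in in vitro iSEPs against 229 ± 26.3 in keratinocytes (log2 -1.08, adjusted p = 0.00893). The call of Ctsb held in 20 of 20 alternatives in in vitro and in 16 of 20 in in vivo iSEPs. That of Mmp9 held in 13 of 19 and 3 of 19, and that of Ctsc in 4 of 19 and 16 of 19, so both counts depend on the setting. The list's median difference from keratinocytes was -0.43 in in vitro iSEPs and -0.67 in in vivo iSEPs, beside -0.02 and -0.05 over all genes.

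Protease inhibitors other than Spink5 were mostly raised with it. Of 24 listed 15 were tested. In in vitro iSEPs 11 rose and 1 fell against ADSCs, where 32.1% and 21.7% of all genes did. The counts were 11 and 2 in in vivo iSEPs (27.6% and 20% of all genes), and 13 and 2 in keratinocytes (32.8% and 20.7%). Serpinb5 (maspin) is a serpin and is listed by family, not for a known inhibitor activity. It averaged 409.5 ± 89.1 FPKM in in vitro and 368 ± 124 in in vivo iSEPs, 379 ± 4.82 in keratinocytes and 0.194 ± 0.109 in ADSCs, with limma adjusted p from 3.33e-10 to 4.33e-10 against ADSCs. Spint2, a Kunitz inhibitor of matriptase, averaged 133 ± 6.6, 125 ± 50.4, 148 ± 10.3 and 0.437 ± 0.176 (adjusted p from 1.35e-09 to 2.03e-09). Against keratinocytes 2 were higher and 3 lower in in vitro iSEPs, where 5.22% and 6.12% of all genes were. In in vivo iSEPs 1 was higher and 3 were lower, where 3.41% and 4.08% of all genes were. Serpinb6c, a serpin, was at 74.5 ± 24.3 in in vitro and 26.6 ± 16.8 in in vivo iSEPs, higher in both than the 4.1 ± 1.46 in keratinocytes (log2 3.88, limma adjusted p = 0.000409, and 2.32, adjusted p = 0.00573). Slpi, an inhibitor of neutrophil elastase and other serine proteases, was at 14.2 ± 6.44 in in vivo iSEPs and 80.6 ± 14.9 in keratinocytes (log2 -2.50, adjusted p = 0.00683).

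Of 19 substrates and receptors of kallikreins 16 were tested. Against ADSCs 11 rose and 2 fell in in vitro iSEPs, where 32.1% and 21.7% of all genes did. Both in in vivo iSEPs (27.6% and 20% of all genes) and in keratinocytes (32.8% and 20.7%), 10 rose and 3 fell. Dsg1a, a desmoglein 1 gene, stood at 36.6, 3.5 and 14.4 FPKM in in vitro iSEPs and at 2.23, 0.93 and 0.663 in keratinocytes. Its difference was called (log2 2.66, limma adjusted p = 0.0344) but missed the threshold in 10 of 20 alternatives (highest adjusted p = 0.112). Il18, a cytokine that epidermis stores as a precursor, was at 144 ± 71.1 in in vitro iSEPs and 10.7 ± 5.56 in keratinocytes (log2 3.58, adjusted p = 0.000943). In in vivo iSEPs it was at 31.5 ± 12.1. Il1a, the gene of the cytokine interleukin-1 alpha, was the 1 gene called lower in in vitro iSEPs than in keratinocytes, beside these 2 called higher. Over all genes 6.12% were lower and 5.22% higher in that comparison. Il1a was at 1.48 ± 1.63 in in vitro iSEPs and 11 ± 3.56 in keratinocytes (log2 -2.41, adjusted p = 0.0237). That call was lost in 5 of 20 alternatives (highest adjusted p = 0.0831). Cdsn, the gene of corneodesmosin, was chosen after its values were seen. It was at 78.4, 8.01 and 23.9 in in vitro iSEPs, 11.2, 1.9 and 44.5 in in vivo iSEPs and 62.9, 41.4 and 29.6 in keratinocytes. F2rl1, the gene of PAR2, was chosen likewise and had means of 60.5 ± 22.6, 62.5 ± 30.6 and 27 ± 5.52 in these 3 groups.

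Terminal differentiation genes mark the layers in which kallikreins are made, and 24 of 27 listed were tested. Against ADSCs 23 of 24 rose in in vitro iSEPs, where 32.1% of all genes did. Both in in vivo iSEPs (27.6% of all genes) and in keratinocytes (32.8%), 15 of 24 rose. None fell in any of these groups, where 20% to 21.7% of all genes did. Against keratinocytes 6 of 24 were higher and 1 lower in in vitro iSEPs, where 5.22% and 6.12% of all genes were. In in vivo iSEPs none was higher and 1 was lower, where 3.41% and 4.08% of all genes were. This was S100a8, an antimicrobial calcium-binding protein gene, at 6.03 ± 4.75 against 67.2 ± 18.9 FPKM (log2 -3.47, limma adjusted p = 0.00462). The list's median difference from keratinocytes was 1.26 in in vitro iSEPs and 0.26 in in vivo iSEPs. Krt10, a keratin of the spinous layer, was at 92.3, 2.95 and 34.9 in in vitro iSEPs, 5, 21.9 and 3.09 in in vivo iSEPs and 1, 0.747 and 0.702 in keratinocytes. The in vitro iSEPs of mice 1, 3 and 2 stood in that order in Krt10 and Dsg1a and in 7 of the 8 kallikreins, all but Klk8, while in in vivo iSEPs Krt10 peaked in mouse 2 and Klk14 in mouse 1. The Krt10 difference between in vitro iSEPs and keratinocytes (log2 3.71, adjusted p = 0.0302) missed the threshold in 7 of 20 alternatives (highest adjusted p = 0.0979). The part of suprabasal genes in the kallikrein levels was not tested.

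**Figure D5:**
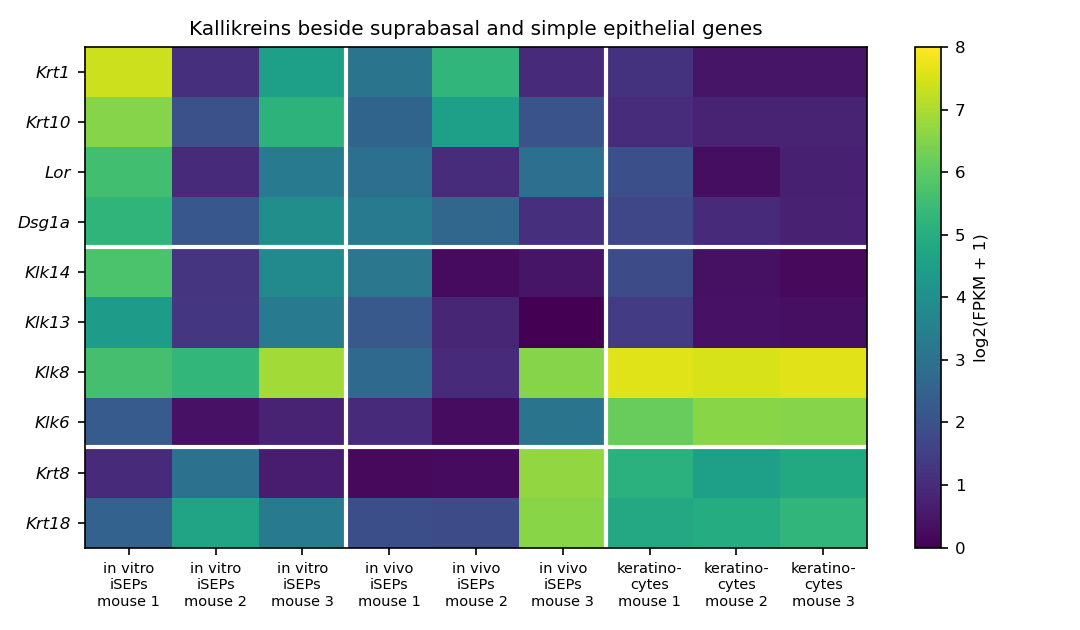
Heat map of log2(FPKM + 1) (colour) for 4 suprabasal genes, 4 kallikreins and 2 simple epithelial keratins (rows) in the 9 iSEP and keratinocyte libraries (columns); rows were picked after the values were seen. Krt10, Dsg1a, Klk14 and Klk13 were highest in the in vitro iSEPs of mouse 1, and Klk8 and Klk6 in keratinocytes, with Krt8 at 21.9 to 33.6 FPKM there.

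All 16 regulators of late differentiation listed were tested. Against ADSCs 13 rose in in vitro iSEPs and none fell, where 32.1% and 21.7% of all genes did. In in vivo iSEPs 10 rose and 2 fell (27.6% and 20% of all genes), and in keratinocytes 11 and 2 (32.8% and 20.7%). Vdr, the vitamin D receptor, was at 19.8, 21.1 and 25.4 FPKM in in vitro and at 18.3, 13.8 and 22.3 in in vivo iSEPs. Keratinocytes had 70.3, 62 and 57.4, above every iSEP library, and both differences were called (log2 -1.48, limma adjusted p = 0.00397, and -1.77, adjusted p = 0.0019). Trp63, whose protein p63 commits cells to stratified epithelium, averaged 98.6 ± 50.6 in in vivo and 78.7 ± 24.9 in in vitro iSEPs, against 34.9 ± 1.9 in keratinocytes. It was higher than in keratinocytes in in vivo iSEPs (log2 1.35, adjusted p = 0.0216), though not in 5 of 20 alternatives. The call in in vitro iSEPs (log2 1.10, adjusted p = 0.0402) was lost with the mouse as a block (adjusted p = 0.0582) and in 11 of 20 alternatives in all.

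The genes whose pattern was most like that of Klk6, by Pearson r of log2(FPKM + 1) over the 12 libraries, were Tmem139 (0.983), Stmn2 (0.982), Flrt1 (0.980), Cd28 (0.973) and Usp43 (0.971). Stmn2, a microtubule regulator known from neurons, reached 9.59 ± 1.31 FPKM in keratinocytes, against 0.658 ± 0.27 in in vitro and 0.855 ± 0.623 in in vivo iSEPs and 0.00567 ± 0.00981 in ADSCs. Of these 5 it had the highest level in keratinocytes, all of them below Klk6. For Klk8 they were Marveld3 (0.977), Pi4k2a (0.975), Pcdh1 (0.975), Atp2c2 (0.973) and Blnk (0.973). Pcdh1, a protocadherin of epithelia, reached 45.4 ± 4.47 in keratinocytes, against 14.1 ± 1.96 in in vitro and 11 ± 12.2 in in vivo iSEPs and 2.26 ± 0.471 in ADSCs. The 12 libraries share 4 groups, so the group means set much of each r.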

How the data were processed

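The authors deposited 1 table of FPKM values with 3 decimals for 24537 genes. The mm10 build, STAR 2.5.1b, FastQC 0.11.5 and HOMER are named in the submitters' processing notes, and per the file headers HOMER counted reads of exons on the plus strand setting, kept 1 entry per gene and scaled them to FPKM. The table holds 3 further value columns that match no sample here and were not used.

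Low values were whole multiples of what 1 read is worth (100% within a tolerance of 0.15 reads), which gave reads per gene. Values were taken as log2(FPKM + 1) and fitted with limma 3.58.1 in R 4.3.3, with 4 group means, all 12 libraries and a mean-dependent variance trend, two-sided, after a filter at 1 FPKM in 3 libraries. The procedure was tested on simulated data. Fold changes on this scale understate those of low genes. Folds given as times are ratios of mean FPKM. A gene with a handful of reads is measured with little precision. As the values are FPKM and not counts, the test is on the log scale and no count test was run.

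The members and gene lists were chosen with earlier results of these data known. From each list, up to 3 called genes with the largest change per comparison could be named, with the 5 genes most like Klk6 and Klk8 and the genes within 100 kb of the cluster; other genes are said to be chosen after their values were seen. A2ml1 was not matched. Per the labels, same-numbered cultures come from the same mouse. The deviations of same-numbered libraries correlated at -0.18 to 0.21 (median 0.045, 18 pairs).

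Alternatives were pseudocounts of 0.1 and 0.5, no filter or 5 FPKM, median scaling, quantile normalization, the mouse as a block, only the 2 groups compared, and leaving out each library. The kallikrein sum without Klk6 and Klk8 was added after seeing the data.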

Additional observations from a re-analysis of the deposited data

How the results depend on the processing

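The rises called against ADSCs (Klk5, Klk7, Klk10 and Spink5 in keratinocytes, Klk7, Klk10, Klk13, Klk14 and Spink5 in in vitro iSEPs, Klk7 and Spink5 in in vivo iSEPs) held in each of 19 or 20 alternatives, Klk5 and Klk13 having no value with the filter at 5 FPKM. That of Klk10 in in vivo iSEPs held in 14 of 20, and no called difference of the 6 genes tested changed its direction. With only the 2 groups compared, the count of genes between keratinocytes and ADSCs went from 6616 to 7745, so that such fits lost calls in some comparisons and gained them in others; the cause was not tested. With the mouse as a replicate block no call of the 6 genes changed, and the number of genes called between in vivo and in vitro iSEPs went from 201 to 128. That number was 1 with only these 2 groups in the fit, and 58 to 360 with 1 library left out. Between in vivo iSEPs and keratinocytes it was 925, with 424 in the fit of the 2 groups and 358 to 1676 with 1 library left out. Between in vitro iSEPs and keratinocytes it was 1403, with 2060 in the fit of the 2 groups and 524 to 2107 with 1 library left out. The libraries behind these extremes were, for in vivo against in vitro iSEPs, mouse 3 of the in vitro (58) and of the in vivo iSEPs (360). Against keratinocytes the lowest counts, 524 and 358, came without the keratinocytes of mouse 2. The highest came without in vivo iSEPs, of mouse 3 (2107, in vitro) or mouse 1 (1676, in vivo). Of the 6 genes, 0 to 2 were called between in vivo and in vitro iSEPs with 1 library left out, 2 without the in vitro iSEPs of mouse 2. Median scaling moved the share of called genes that were higher from 61.4% to 46.8% in keratinocytes against ADSCs, from 59.7% to 47.3% in in vitro iSEPs, from 57.9% to 48.1% in in vivo iSEPs and, for in vivo iSEPs against keratinocytes, from 45.5% to 56.5%. Of 79 calls of list genes, 58 held in every alternative and 6 were lost with the replicate block. Klk5, Klk6, Klk7, Klk11, Klk13 and Klk14 had 0 to 4 reads in the ADSCs together, and Klk11 had 7 in keratinocytes, which limits the precision of their differences.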
